A study of Mus musculus with 5 samples.

Results

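Hnf4a, Foxa1, Foxa2, Foxa3, Onecut1, Onecut2, Sox9 and Cebpa, transcription factors of the liver and biliary lineages, were followed in 5 libraries of mouse hepatobiliary organoids. They were taken as a list of 8 symbols and matched by gene symbol to the deposited tables, where all 8 were found among the 52029 genes of the table shared by 4 libraries and again in the table of the remaining library. Hepatobiliary organoids are three-dimensional epithelial cultures that renew themselves; these came from primary liver stem/progenitor cells of wild-type mice. The study asked how liver endothelial cells (LiECs) act on survival and proliferation of such progenitors. The co-cultures were organoids at passage 8 grown with LiECs (3 libraries), and the organoids alone were at passage 1 (2 libraries). Both were wild type and were sampled at day 10 in the same medium, with epidermal growth factor, endothelial cell growth supplement, heparin, nicotinamide and the ROCK inhibitor Y-27632. Because passage and co-culture changed together, their effects cannot be told apart. The labels do not say whether the endothelial cells were removed before RNA isolation, nor whether each library is a culture of its own. The p-values are therefore relative to the differences among these libraries alone, which may be technical.

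Hepatocytes and cholangiocytes, the epithelial cells of the bile ducts, arise from a common fetal progenitor, the hepatoblast. FOXA1, FOXA2 and FOXA3 are forkhead pioneer factors that open chromatin at liver genes. HNF4A is a nuclear receptor that drives most of the hepatocyte programme, and C/EBP alpha, the product of Cebpa, is a leucine-zipper factor of hepatocyte maturation and metabolism that is kept low in the biliary lineage. ONECUT1 (also called HNF6) and ONECUT2 act in the hepatoblast and in bile duct formation, and SOX9 marks duct cells and progenitors of the biliary tree.

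Whole-library measurements were as follows. Total counts were 33881617 and 35878241 in the co-culture libraries M9 and M10, 58853737 in the third co-culture library, and 26466739 in M11 and 29195328 in M12, both from organoids alone. M9, M10, M11 and M12 share a table with rows for Ensembl genes. The third co-culture library has a table of its own with rows for RefSeq genes, so it is unreplicated there, and no test was made of how it differs from the organoids alone. The biliary genes Krt19, at 1313 to 4511 CPM in co-cultures against 1745 and 2262 CPM alone, and Epcam, at 531 to 670 CPM in co-cultures against 655 and 752 CPM alone, were abundant in every library. Spp1, another biliary gene, had 1165, 682 and 2080 CPM in M9, M10 and the third co-culture library against 2120 and 2875 CPM alone. All 3 co-culture libraries lay below both alone, as for 16.4% of genes, and edgeR did not call it (adjusted p = 0.0825). Cps1, a urea cycle enzyme that defines mature hepatocytes, had at most 1 count in any library. Tat had 10 counts in M11 and 0 counts in the other libraries. Other hepatocyte markers were present. Ttr had 58.4, 114 and 231 CPM in M9, M10 and the third co-culture library against 39.8 and 45.0 CPM alone. Alb had 0.157, 0.276 and 66.3 CPM in the same order against 17.2 and 53.2 CPM alone. Apoa1 was low, at 0.596, 1.47 and 6.07 CPM against 0.156 and 0.145 CPM alone. Among endothelial markers, Pecam1 had 2, 2 and 10 counts in M9, M10 and the third co-culture library against 1 and 2 counts alone, and Clec4g had 0 counts in every library. The 15 endothelial markers summed, per total count, to 54.5, 49.4 and 17.8 CPM in those co-culture libraries against 19.1 and 18.3 CPM alone, with Ptprb the largest part. Of the 4 tested, edgeR called 1 higher and 0 lower, beside 0.994% and 1.25% of all genes. This was Ptprb, at 46.0 and 42.5 CPM in M9 and M10 against 9.84 and 9.66 CPM alone (edgeR adjusted p = 0.0137). It had 10.4 CPM in the third co-culture library. Its call was lost in the fit of all 5 libraries (adjusted p = 0.494 by edgeR), where 0.0136% of all genes were called. CPM are counts scaled to a common library size (TMM) over all 5 libraries, unless a sum is said to be per total count or a level is given per kilobase.

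Cebpa and Foxa3 were the members that stood lower in all 3 co-culture libraries than in both libraries of organoids alone. The stretches just before their transcription starts are shown because the pair also moved together over the 4 libraries of the shared table. Foxa1 is shown beside them as a FoxA paralog whose groups overlapped. The groups of Foxa2 overlapped too, and its windows are not printed. They come from RefSeq's promoter table on GRCm38.p6, which held 6 of the 8 members, and are written 5' to 3' on each gene's own strand. Capitals mark an exact match to TATAAA in Cebpa and Foxa3 and to the reverse complement of TGTTTAC, the forkhead motif, in Foxa1. The windows hold no annotated exon bases and are chr7:35119043-35119292 on the plus strand for Cebpa, chr7:19023540-19023789 on the minus strand for Foxa3 and chr12:57546122-57546361 on the minus strand for Foxa1. The Foxa1 window lies inside the annotated gene, before the start of one transcript and in an intron of another transcript that starts further upstream.
Cebpa: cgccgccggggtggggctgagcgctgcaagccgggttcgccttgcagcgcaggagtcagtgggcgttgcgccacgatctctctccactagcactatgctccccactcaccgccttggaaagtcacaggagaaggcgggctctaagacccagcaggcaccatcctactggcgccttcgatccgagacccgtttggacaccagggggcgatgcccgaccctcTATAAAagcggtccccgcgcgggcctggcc
Foxa3: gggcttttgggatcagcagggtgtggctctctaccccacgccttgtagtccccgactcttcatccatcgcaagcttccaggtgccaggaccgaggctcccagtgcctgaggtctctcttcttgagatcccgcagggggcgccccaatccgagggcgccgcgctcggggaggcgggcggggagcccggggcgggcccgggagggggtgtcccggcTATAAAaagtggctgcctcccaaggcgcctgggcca
Foxa1: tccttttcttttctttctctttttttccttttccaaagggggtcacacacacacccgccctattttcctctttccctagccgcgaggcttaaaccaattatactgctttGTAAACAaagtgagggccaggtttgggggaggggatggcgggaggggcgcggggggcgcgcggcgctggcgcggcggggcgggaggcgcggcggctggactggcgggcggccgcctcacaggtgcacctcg
TATAAA began 30 bases before the start of Cebpa and 36 bases before that of Foxa3. TATAAA, searched on both strands, occurred in 13.6% of the 32851 mouse promoters of the table, and on the coding strand at 25 to 40 bases before the start in 1.91%. This motif was added after the sequences had been seen. The forkhead match in Foxa1 lay 141 bases before its start, and TGTTTAC was found in 3.65% of all promoters. The onecut motif ATTGAT, present in 7.54% of promoters, matched 59 bases before the distal start of Hnf4a on the reverse strand and 213 bases before a start of Foxa2, another start of which had TATAAA on the reverse strand 208 bases before it. No member window held the HNF4 motif CAAAGTCCA, the C/EBP motif TTGCNNCAA, the SOX motif ACAATG or the HNF1 motif, which occur in 0.475%, 2.08%, 12.6% and 0.0609% of promoters in that order. A match describes letters and not a bound site.

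No member was called by the test used, which does not show that none changed. edgeR's quasi-likelihood test of M9 and M10 against M11 and M12, with Benjamini-Hochberg adjustment over all 15899 genes tested, called 0 of the 8 members at an adjusted p of 0.05, where 2.24% of all tested genes were called. All 8 had passed the low-count filter. Without adjustment, Cebpa and Foxa3 had p under 0.05, and 17.5% of all tested genes did. limma-voom also called 0 of 8, beside 1.79% of all genes, and the edgeR fit of all 5 libraries called 0 of 8, beside 0.0136%. DESeq2 called Cebpa and Foxa3 lower, where it called 8.2% of all genes, and so did edgeR with no low-count filter, where 4.92% were called. The median log2 fold change of the 8 was -0.11, beside 0.00058 over all tested genes, with 3 above and 5 below 0. The median of the 8 was -0.56 without M10, 0.0037 without M9 and 0.0082 in the fit of all 5 libraries.

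**Figure D1:**
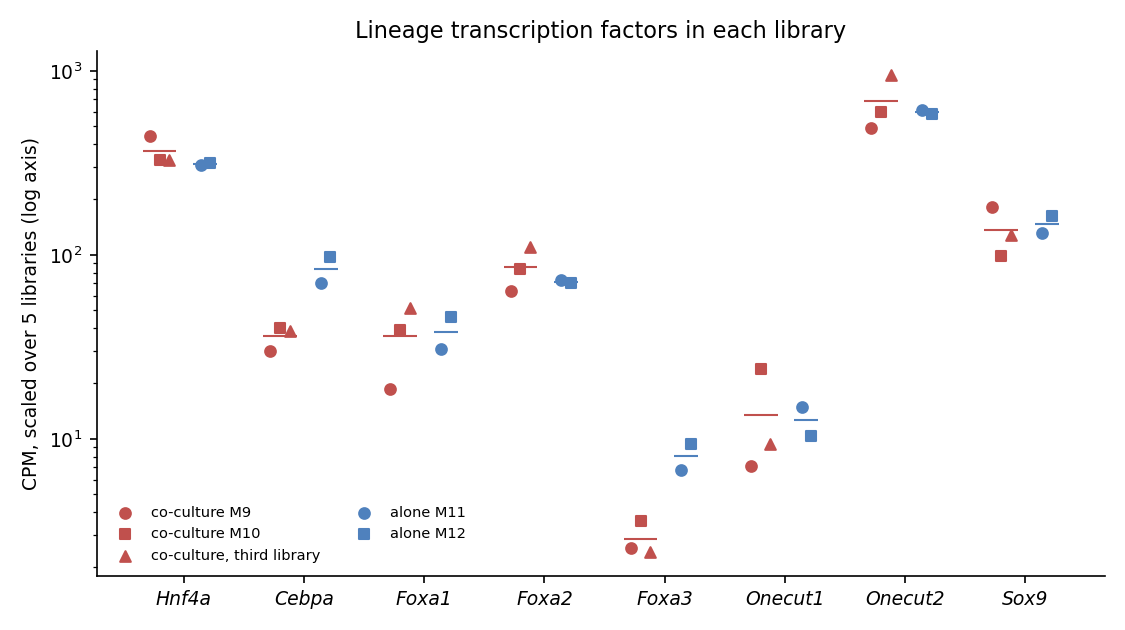
Level of each factor in each library, in CPM scaled over 5 libraries on a log axis; points are single libraries, co-cultures left of organoids alone, and horizontal lines are group means. Cebpa and Foxa3 have all 3 co-culture points below both points of organoids alone, Hnf4a has all 3 above, and the other 5 factors overlap.

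Cebpa (ENSMUSG00000034957, protein coding, chromosome 7 from 35119293 to 35121928 on the plus strand) had 29.9, 39.9 and 38.3 CPM in co-culture libraries M9, M10 and the third, against 69.9 and 97.1 CPM in M11 and M12. The groups did not overlap, and the highest co-culture library lay well under the lowest library alone. The means were 36.0 ± 5.41 CPM (SD, n = 3) in co-cultures and 83.5 ± 19.2 CPM (SD, n = 2) alone. Over the 4 libraries of the shared table the log2 fold change was -1.27 ± 0.24 (SE), a fold of 0.414, with an adjusted p of 0.0626 by edgeR and a 95% interval of -1.86 to -0.69. The third co-culture library, which was not in that test but shares M11 and M12 in this difference, lay 1.10 below the organoids alone on the log2 scale (-1.10). The call depended on the tool and on single libraries. DESeq2 gave an adjusted p of 2.04e-04 and limma-voom 0.0745. edgeR gave 0.0151 without M9, where 15.7% of all genes were called, and 0.00836 without M10, where 6.68% were. It gave 0.144 without M11 and 0.41 without M12, where 0.292% and 0% of all genes were called. A transcript antisense to Cebpa, Gm45091, had 8 and 17 counts in M9 and M10 against 4 and 7 in M11 and M12, beside 952 and 1302 counts of Cebpa in M9 and M10 against 1798 and 2685.

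Foxa3 (ENSMUSG00000040891, protein coding, chromosome 7 from 19013284 to 19023538 on the minus strand) is the FoxA paralog known for a part in glucose homeostasis on fasting. It had 2.54, 3.59 and 2.43 CPM in M9, M10 and the third co-culture library, against 6.73 and 9.33 CPM in M11 and M12, from 81, 117 and 141 counts against 173 and 258 counts. The groups did not overlap here either. Means were 2.85 ± 0.639 CPM (SD, n = 3) in co-cultures and 8.03 ± 1.84 CPM (SD, n = 2) alone. The log2 fold change was -1.40 ± 0.38 (SE), a fold of 0.378, with an adjusted p of 0.139 by edgeR and a 95% interval of -2.33 to -0.47. The third co-culture library lay at -1.68 against the organoids alone. By edgeR the adjusted p ranged between 0.0407 without M10 and 0.705 without M12, and DESeq2 gave 0.019.

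Being lower in all 3 co-culture libraries than in both libraries alone was not rare: 16.4% of 14733 genes were, and 2 of the 8 members. Groups that did not overlap in either direction made up 31.9% of genes, and 3 of the 8 members (Hnf4a, Foxa3 and Cebpa). Between M9 and M10 and the organoids alone, these 3 of the 8 members did not overlap, beside 49.4% of genes. Some markers of other cells were also lower in the co-cultures. The summed level of 12 mesenchymal markers, per total count, was 2.01, 3.09 and 8.21 CPM in M9, M10 and the third co-culture library, against 28.1 and 83.9 CPM alone. Of the 7 that passed the low-count filter edgeR called 0 higher and 3 lower (Rgs5, Col3a1 and Col6a3), beside 0.994% and 1.25% of all genes. The calls of Col3a1 and Col6a3 rest on 1 and 3 counts in M9 and M10 together. The 8 macrophage markers summed to 313, 276 and 430 CPM in those co-culture libraries against 682 and 586 CPM alone, mostly Cd14. Of the 4 tested edgeR called 0 higher and 2 lower (Cd14 and Lyz2), beside the same shares of all genes. None of these mesenchymal and macrophage calls held in the fit of all 5 libraries, where 0.0136% of all genes were called. Csf1r lay the other way and was not called. It had 32.8, 56.2 and 85.6 CPM in M9, M10 and the third co-culture library against 31.5 and 32.0 CPM alone. Cd68 lay the other way in M9 and M10 only, with a log2 fold change of 0.79, and was not called. It had 5.46, 6.75 and 1.36 CPM in M9, M10 and the third co-culture library against 3.23 and 3.76 CPM alone. The defining markers Adgre1 and Clec4f were at 0 counts in every library. The part of these cells in the levels of Cebpa and Foxa3 was not tested. In bulk RNA, fewer cells of a type and less RNA per cell cannot be told apart.

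Cebpa and Foxa3 followed almost the same course over the 4 libraries. Among 10064 tested genes whose mean log2 CPM reached 3, Cebpa was the gene nearest to Foxa3, with a root mean square difference of 0.0119 log2 units between the 2 patterns after each was centred on its own mean. The next nearest to Foxa3 was Ntn1, at 0.0582. For Cebpa itself, Ntn1 at 0.0619 and Tubb2b at 0.0765 came nearest, Foxa3 being too low in level to be a candidate. With 4 libraries, many genes can share a pattern this closely. The third co-culture library was not in this measure. Both factors were low there, by which the pair had been picked out, but not to a like degree. Cebpa lay at -1.10 and Foxa3 at -1.68 against the organoids alone on the log2 scale.

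Hnf4a (ENSMUSG00000017950, chromosome 2 from 163506808 to 163572910 on the plus strand) had 441, 326 and 327 CPM in M9, M10 and the third co-culture library, against 307 and 313 CPM in M11 and M12. All 3 co-culture libraries lay above both libraries alone, M9 by the most and the other two by little. Means were 365 ± 66.3 CPM (SD, n = 3) in co-cultures and 310 ± 4.34 CPM (SD, n = 2) alone. The log2 fold change of 0.30 ± 0.19 (SE) did not pass edgeR's test (adjusted p = 0.513), and its 95% interval ran over -0.18 to 0.77. Counts per gene do not separate the products of the distal and proximal Hnf4a promoters. An antisense transcript, Hnf4aos, had 15 and 8 counts in M9 and M10 against 2 and 7 in M11 and M12.

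Among the FoxA factors, Foxa2 (chromosome 2 from 148042877 to 148046969, minus strand), which acts from early endoderm onward, had 63.3, 83.6 and 111 CPM in M9, M10 and the third co-culture library, against 72.8 and 70.0 CPM alone. The co-culture libraries lay on both sides of those alone, and the log2 fold change was 0.03 ± 0.18 (SE; adjusted p = 0.961 by edgeR; 95% interval -0.42 to 0.47). Foxa1 (chromosome 12 from 57540628 to 57546916, minus strand), which is largely redundant with Foxa2 in liver specification, had 18.7, 38.8 and 51.4 CPM in the co-culture libraries in the same order, against 30.6 and 45.7 CPM alone. Its groups overlapped, and its log2 fold change of -0.42 ± 0.38 (SE) had an adjusted p of 0.647 by edgeR and a 95% interval of -1.36 to 0.52. In the third co-culture library both stood above the organoids alone, Foxa2 by 0.63 and Foxa1 by 0.46 on the log2 scale.

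**Figure D2:**
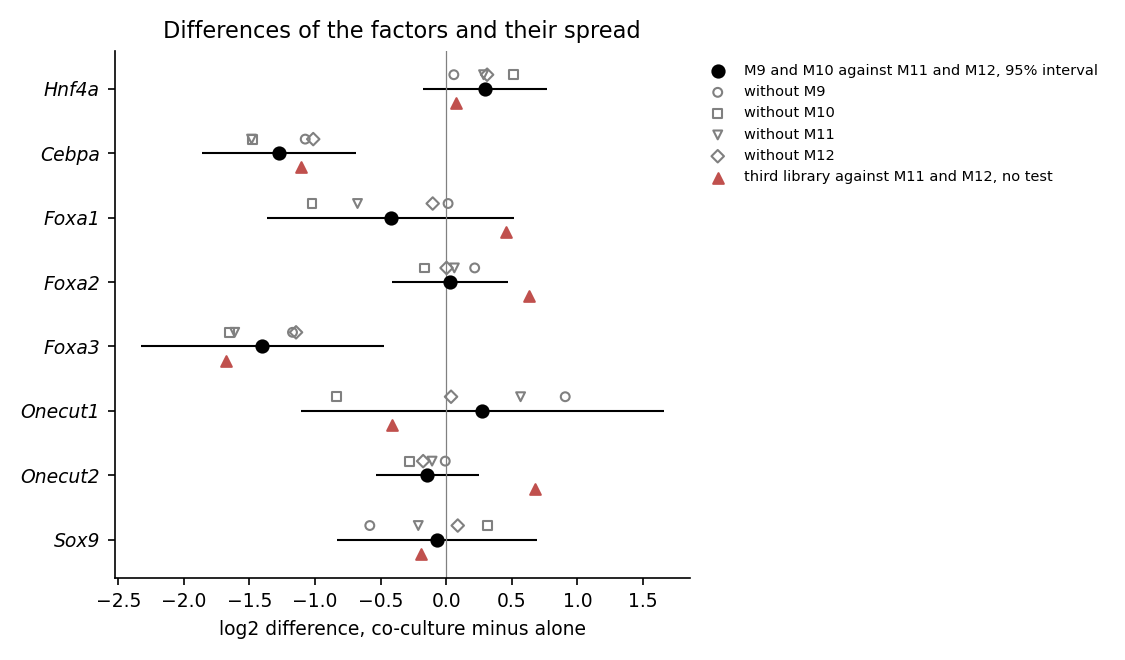
Log2 difference of each factor, co-culture minus organoids alone; black circles with bars are the edgeR estimate for M9 and M10 with its 95% interval, open symbols the estimate with 1 library left out, and red triangles the third co-culture library, which has no error. The intervals of Cebpa and Foxa3 lie below 0 before adjustment over all genes, and those of the other 6 include 0.

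The make-up of the FoxA counts differed between groups in Foxa3. A share within a library does not depend on scaling. Foxa3 gave 3.00% of all FoxA counts in M9 (exact binomial 95% interval 2.39 to 3.72), 2.85% in M10 (2.36 to 3.40) and 1.48% in the third co-culture library (1.25 to 1.74). In the organoids alone it gave 6.11% in M11 (5.26 to 7.06) and 7.46% in M12 (6.61 to 8.39). No co-culture interval reached an interval of the organoids alone, and the intervals cover counting error only. The mean shares of Foxa3 were 2.44% ± 0.839 (SD, n = 3) in co-cultures and 6.79% ± 0.955 (SD, n = 2) alone. Foxa2 was the most counted FoxA gene in every library, with 74.9%, 66.3% and 67.2% in the co-culture libraries against 66.1% and 56.0% alone, and per kilobase of exons its mean share was 75.2% in co-cultures and 66.4% alone. Foxa1 took 22.1%, 30.8% and 31.3% in co-cultures against 27.8% and 36.6% alone. The third library's shares come from RefSeq gene rows, whose lengths can differ. No test of the groups was made, since a one-sided exact permutation test of 3 against 2 libraries cannot go below a p of 0.1.

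**Figure D3:**
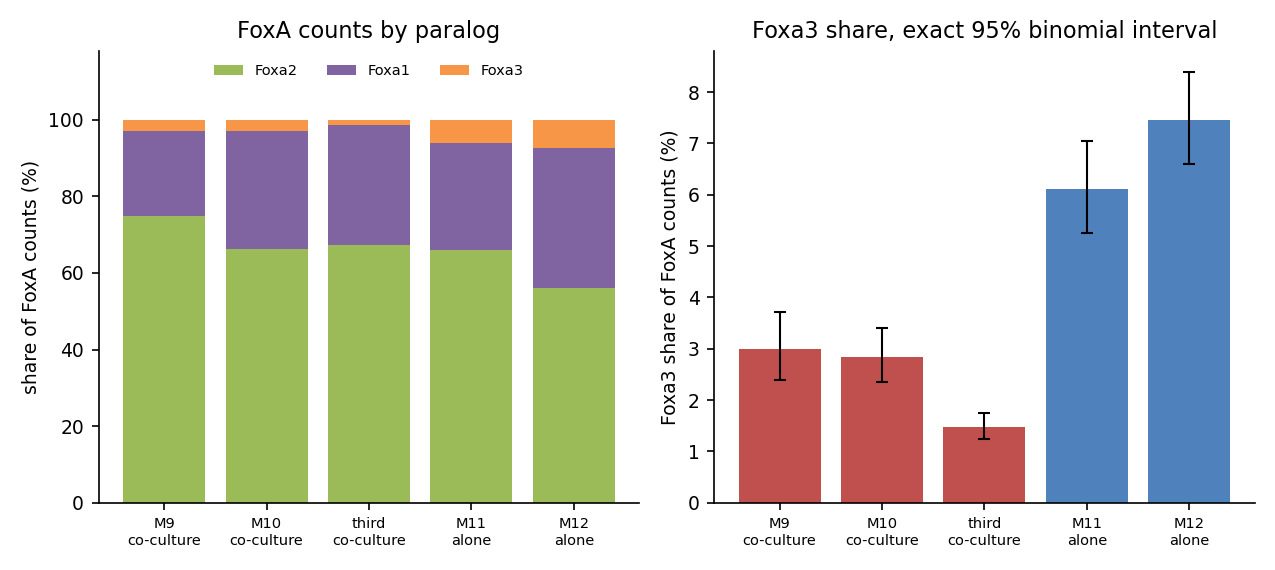
Share of all FoxA counts taken by Foxa2, Foxa1 and Foxa3 in each library, in percent (left panel), and the Foxa3 share with its exact binomial 95% interval (right panel); co-cultures are left of organoids alone. Foxa3 gives 1.48% to 3.00% in co-cultures against 6.11% and 7.46% alone, while Foxa2 leads in all 5 libraries.

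The onecut factors were unequal in level, per length as well: per kilobase of exons, Onecut1 gave 7.60% of the pair in co-cultures and 7.70% alone. Onecut2 (ENSMUSG00000045991, chromosome 18 from 64340020 to 64400987, plus strand) had 491, 599 and 953 CPM in M9, M10 and the third co-culture library, against 611 and 584 CPM alone. M9 lay below both libraries alone and the third library above both. The log2 fold change over the 4 libraries was -0.15 ± 0.16 (SE; adjusted p = 0.715 by edgeR; 95% interval -0.54 to 0.25), and with all 5 libraries in the fit it was 0.19. Onecut1 (ENSMUSG00000043013, chromosome 9 from 74861921 to 74891781, plus strand) had 7.09, 24.0 and 9.38 CPM in the co-culture libraries, against 15.0 and 10.4 CPM alone. M10 was the highest and M9 the lowest of all 5, so the co-cultures spanned the organoids alone. Its log2 fold change of 0.28 ± 0.56 (SE) had an adjusted p of 0.857 by edgeR and a 95% interval of -1.11 to 1.66. Onecut1 gave 1.42%, 3.85% and 0.975% of the Onecut1 and Onecut2 counts in the co-culture libraries, against 2.39% and 1.75% alone. Onecut3, the remaining paralog and named after its values were seen, had 11.9, 21.0 and 1.90 CPM in co-cultures against 15.8 and 7.70 CPM alone (adjusted p = 0.654 by edgeR).

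Sox9 (ENSMUSG00000000567, chromosome 11 from 112782224 to 112787760, plus strand) had 182, 98.6 and 128 CPM in M9, M10 and the third co-culture library, against 131 and 162 CPM alone. M9 lay above and the other co-culture libraries below both libraries alone. The means were 136 ± 42.1 CPM (SD, n = 3) in co-cultures and 147 ± 21.6 CPM (SD, n = 2) alone, and the log2 fold change was -0.07 ± 0.31 (SE; adjusted p = 0.938 by edgeR; 95% interval -0.84 to 0.69). The intervals of Onecut1, Foxa1 and Sox9 are wide, and a missed threshold does not show equal levels.

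The spread between M9 and M10 was unequal among the members. Onecut1 differed by 1.66 on the log2 scale between these 2 libraries, and 1.93% of tested genes had a larger gap. Foxa1 differed by 1.01 and Sox9 by 0.90, with larger gaps in 8.25% and 10.6% of genes. Sox9 and Hnf4a were higher in M9, while Onecut1 and Foxa1 were higher in M10. Hnf4a differed by 0.46, and Foxa3, Cebpa, Foxa2 and Onecut2 by 0.26 to 0.40, against a median gap of 0.30 over all tested genes. Between M11 and M12 the gaps were 0.58 for Foxa1, 0.50 for Onecut1, 0.48 for Cebpa, 0.45 for Foxa3 and 0.31 for Sox9, each above the median of 0.20. Hnf4a, Foxa2 and Onecut2 differed there by 0.03 to 0.06.

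By the same measure of likeness, the other members had other neighbours. Tmem86a (0.0143) and Lhpp (0.0171) were nearest to Hnf4a, Gm28661 (0.00708) and Sun1 (0.0108) to Foxa2, and Cpeb4 (0.00829) and Zcchc14 (0.0125) to Onecut2. Enc1 (0.0223) and N6amt1 (0.0369) were nearest to Sox9. Foxa1 and Onecut1 had no gene closer than 0.0699 and 0.0813 log2 units, those of Tmed2b and Tsc22d3. No member other than Cebpa was among another member's 2 nearest genes.

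Levels can be set between genes only per length. In CPM per kilobase of annotated exons, scaled over the 4 libraries of the shared table, Hnf4a was the most abundant member in all 4, with 86.5 and 62.8 in M9 and M10 against 60.1 and 61.5 in M11 and M12. Onecut2 (33.2 ± 3.09, SD over the 4 libraries), Sox9 (32.7 ± 8.47) and Foxa2 (28.8 ± 3.13) followed, each within 1 SD of Sox9. Cebpa had 10.7 and 14.1 CPM per kilobase in M9 and M10 against 25.0 and 34.9 in M11 and M12, and ranked 5 of 8 in M9, M10 and M11 and 3 of 8 in M12. Foxa1 averaged 9.48 ± 3.29. Onecut1 at 3.23 ± 1.65 and Foxa3 at 2.57 ± 1.44 were lowest and did not differ beyond their spread.

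**Figure D4:**
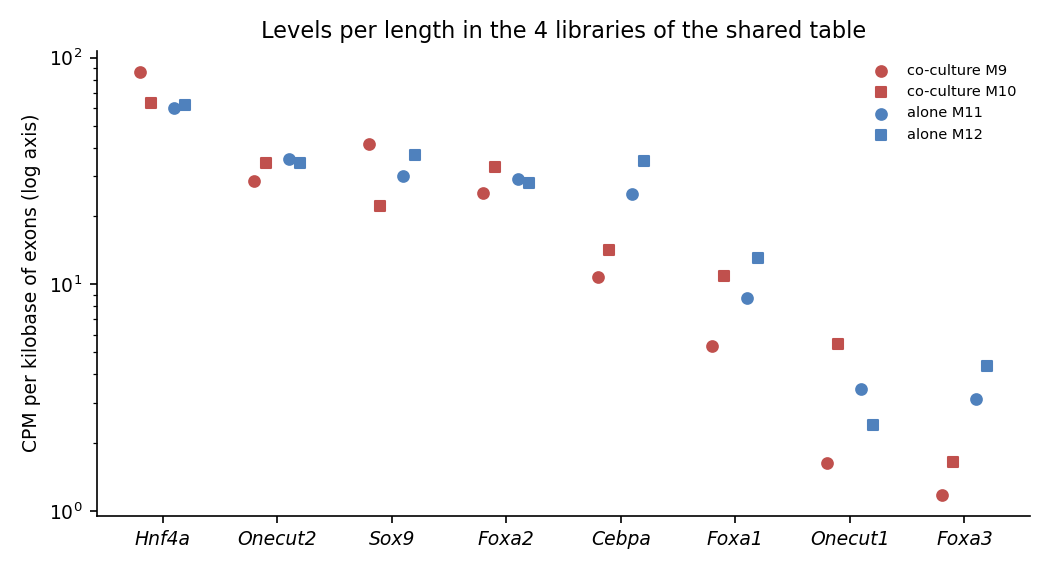
Level of each factor per kilobase of annotated exons, in CPM per kilobase on a log axis, for M9 and M10 (co-culture) left of M11 and M12 (alone). Hnf4a leads in all 4 libraries, Onecut2, Sox9 and Foxa2 lie close together, and Onecut1 and Foxa3 are lowest.

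Other liver-enriched transcription factors were then counted. Of 27 listed, 25 were tested, 0 were called higher and 2 lower by edgeR, where 0.994% of all genes were called higher and 1.25% lower, and the list median was -0.12. Nr5a2, a nuclear receptor of bile acid and cholesterol metabolism, had 0, 3 and 139 counts in M9, M10 and the third co-culture library, against 170 and 320 counts alone. It fell in M9 and M10 (adjusted p = 0.0236 by edgeR), with a ratio of 205 between organoids alone and these co-cultures and a counting interval of 69.6 to 996. That ratio rests on 3 counts in M10, and the fitted log2 fold change was -6.57 when M9 was left out, -11.0 when M10 was, and -3.42 in the fit of all 5. Prox1, a homeobox factor of hepatoblast migration, had 14.1 and 15.1 CPM in M9 and M10 against 41.1 and 38.3 CPM alone and fell by 1.45 ± 0.19 (SE) on the log2 scale (adjusted p = 0.0275 by edgeR), yet stood at 67.5 CPM in the third co-culture library. Both calls were lost in the edgeR fit of all 5 libraries (adjusted p 0.586 for Nr5a2 and 0.897 for Prox1), where 0.0136% of all genes were called. Without M11 or M12, which leaves a lone library of organoids alone, both were lost too, as were most calls over all genes. The log2 fold changes without M11 and without M12 were -7.85 and -7.045 for Nr5a2 and -1.40 and -1.50 for Prox1. The C/EBP relatives were named after their values were seen. Cebpd had 9.22, 14.1 and 7.71 CPM in co-cultures against 21.3 and 28.2 CPM alone, a log2 fold change of -1.10 ± 0.29 (SE) that edgeR did not call (adjusted p = 0.137), and Cebpb had 146, 121 and 56.6 CPM in co-cultures against 123 and 173 CPM alone (adjusted p = 0.773 by edgeR).

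Of 20 biliary and progenitor transcription factors, 19 were tested and 0 were called by edgeR or by limma-voom. At an unadjusted p under 0.05 there were 8, beside 17.5% of all genes, and DESeq2 called 4, beside 8.2%. Of the 2 most abundant, Id2, an inhibitor of helix-loop-helix factors, had 444, 833 and 765 CPM in co-cultures against 402 and 295 CPM alone (adjusted p = 0.249 by edgeR), and Sox4, a SOX factor that acts with Sox9 in duct formation, had 462, 506 and 722 CPM in co-cultures against 371 and 338 CPM alone (adjusted p = 0.208 by edgeR). For both, every co-culture library lay above both libraries alone, where 31.9% of all genes did not overlap in either direction. Of 16 transcription factors of other endodermal and squamous epithelia, 6 were tested and 0 were called by edgeR or limma-voom, with 3 at an unadjusted p under 0.05 and 2 called by DESeq2. Their log2 fold changes were above 0 in 6 of 6, with a median of 0.62, but in the third co-culture library 2 of 6 lay above the organoids alone. Foxq1 had 127, 175 and 92.1 CPM in co-cultures against 91.7 and 100.2 CPM alone, and Klf4 had 60.6, 54.0 and 36.3 CPM against 29.5 and 54.8 CPM alone.

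Genes known to lie under these factors were counted by lineage. Of 30 hepatocyte genes, 13 were tested and 3 fell by edgeR, with a list median of -1.77, also with 2 genes of few counts set to their bound, where 1.25% of all genes were called lower. That median was -4.66 without M9, -4.05 without M10, -5.32 without M11, -0.80 without M12 and -0.75 with all 5 libraries, over 13 to 17 tested genes. These were the plasma protein genes Alb, at 0.157 and 0.276 CPM in M9 and M10 against 17.2 and 53.2 CPM alone (edgeR adjusted p = 0.0186), Trf, at 82.0 and 120 CPM against 559 and 1348 CPM alone (adjusted p = 0.0345), and Hp, at 0.533 and 0.307 CPM against 16.8 and 136 CPM alone (adjusted p = 0.046). In the third co-culture library Alb had 66.3 CPM, Trf 1125 CPM and Hp 19.6 CPM, so these genes did not stand with M9 and M10 there, whereas Cebpa and Foxa3 did. That library lay above the organoids alone for 7 of the 13, with a median of 0.26. In the test of M9 and M10, 3 of the 13 had log2 fold changes above 0 and 10 below. Ttr, at 1.01 ± 0.32 (SE), and Apoa1, at 2.74 ± 0.73 (SE), were higher in all 3 co-culture libraries than in both libraries alone. edgeR called neither (adjusted p = 0.188 and 0.136), and Apoa1 had 4 counts in each library alone. Over all genes, 31.9% did not overlap in either direction. The 3 calls held by edgeR without M11 and were lost without M9, M10 or M12 and with all 5 libraries.

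All 24 biliary genes were tested; by edgeR 4 rose, beside 0.994% of all genes, and 1 fell, beside 1.25%, and the list median was 0.22. Prom1, a progenitor surface protein, had 893, 923 and 966 CPM in co-cultures against 372 and 419 CPM alone (edgeR adjusted p = 0.0264). The water channel gene Aqp1 had 90.0, 75.8 and 584 CPM in co-cultures against 10.4 and 9.08 CPM alone (edgeR adjusted p = 0.0074). The duct keratin gene Krt7 had 3062 and 3304 CPM in M9 and M10 against 1406 and 1520 CPM alone (edgeR adjusted p = 0.0303), and 841 CPM in the third co-culture library. The duct keratin gene Krt19 rose in M9 and M10 by 1.15 ± 0.18 (SE) on the log2 scale (edgeR adjusted p = 0.0436), with 4511 and 4419 CPM against 1745 and 2262 CPM alone, and had 1313 CPM in the third library. Cltrn (collectrin) had 0.188 and 0.153 CPM in M9 and M10 against 7.31 and 5.14 CPM alone (edgeR adjusted p = 0.0167), and 8.90 CPM in the third library. The third co-culture library thus shared the direction of M9 and M10 for Prom1 and Aqp1 and not for Krt7, Krt19 and Cltrn. Without M11 or M12, which leaves a lone library of organoids alone, most of these calls were lost, as were most calls over all genes. The log2 fold changes without M11 and without M12 were 3.18 and 2.99 for Aqp1 and 1.11 and 1.28 for Prom1. They were 1.06 and 1.17 for Krt7 and -4.88 and -5.40 for Cltrn. With all 5 libraries in the fit none of these biliary calls held, where 0.0136% of all genes were called.

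**Figure D5:**
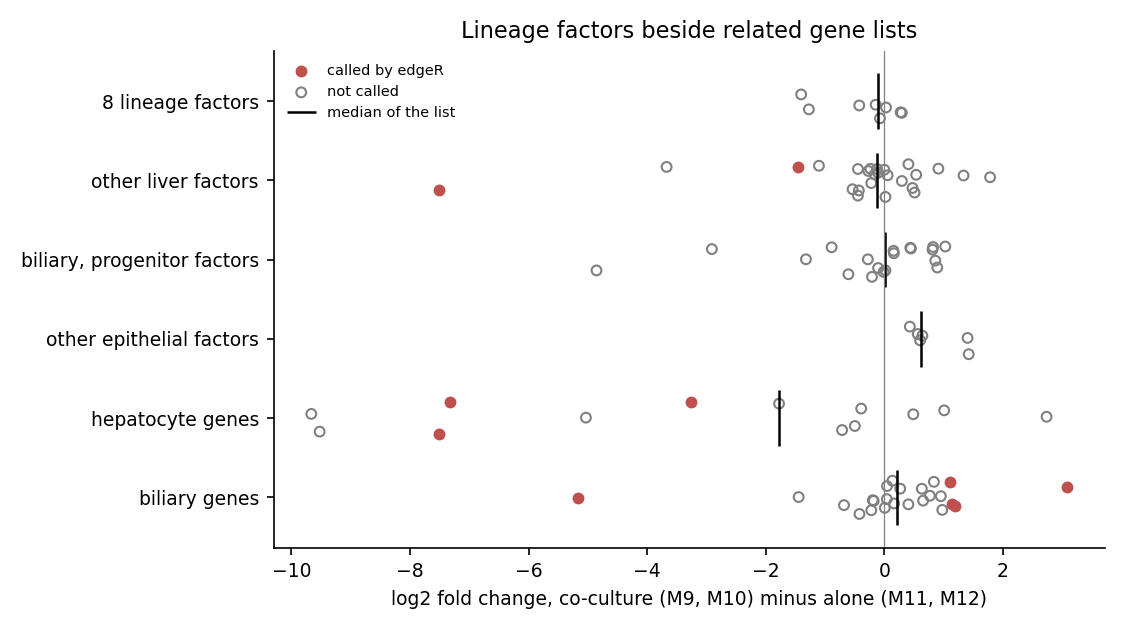
Log2 fold change by edgeR of the tested genes of each list, co-culture M9 and M10 minus organoids alone; points are genes, filled where called, and vertical lines are list medians. None of the 8 lineage factors is called and their median is -0.11, while the hepatocyte genes have a median of -1.77 with 3 called lower.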

How the data were processed

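Per the labels' protocols, total RNA was depleted of ribosomal RNA and sequenced from stranded libraries. The submitters' processing notes name the builds mm10 and GRCh37 and, as tools without roles, StringTie 2.1.3b, HISAT2 2.1.0, Bowtie2 2.3.4.1, Trimmomatic 0.38 and FastQC 0.11.7. What counted the reads, whether by strand, and with which annotation release is not given in the sources used here. The authors deposited estimated counts for 4 libraries, per the file headers and values, in 73925 rows for 52029 genes, of which 1 row per gene was kept; 31.7% of the 28691 genes above 0 had a count that was not whole, and counts were rounded before testing. The authors deposited whole-number counts for the third co-culture library; its column carries another library number than its record, from which the sample was taken. It was joined by symbol for 30869 genes holding 91.9% of its counts. Other deposited measures were not used here.

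The test over the 4 libraries was the robust quasi-likelihood test of edgeR 4.0.16 (R 4.3.3) after filterByExpr and TMM scaling, with p-values adjusted by Benjamini-Hochberg and a threshold of 0.05. The common dispersion came to 0.0695, and the step was tested on simulated data. The standard error is the absolute log2 fold change over the square root of F. Differences of the third library use a prior count of 2. The nearest genes use log2 of CPM plus 0.5. Alternatives were DESeq2 1.42.0, limma-voom (limma 3.58.1), other scalings and filters, fits that leave out a library, and a fit of all 5. Positions are from GENCODE M21 on GRCm38. Members and lists were chosen with earlier results of these data known. Named were the members, up to 4 called genes of a list by smallest p or else the 2 most abundant, overlapping genes at members, and the 2 genes nearest to each member; not every such gene is printed.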

Additional observations from a re-analysis of the deposited data

How the results depend on the processing

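Calls depended on the settings more than directions did. Over all genes, 1303 were called by DESeq2, 1404 with no low-count filter, 2 with all 5 libraries, and 0 to 2619 with 1 library left out, none without M12. Of the 8 members, 2 were called by DESeq2 and 2 without the filter, and 0 to 2 with a library left out. Of the other liver-enriched factors, 5 were called by DESeq2, 7 without the filter and 0 with all 5 libraries. With at least 10 counts in every library, 1 of 22 tested was called, beside 265 of all 13945 genes. This was Prox1, and Nr5a2 was not tested there because its counts were too few. Of the biliary and progenitor factors, 4, 5 and 0 to 7 were called by DESeq2, without the filter and with a library left out, and of the factors of other epithelia 2, 1 and 0 to 1. Of the hepatocyte genes, 8 were called by DESeq2, 1 by limma-voom, 7 without the filter, 0 with all 5 libraries and 0 to 6 with a library left out, and of the biliary genes 8 by DESeq2, 10 without the filter, 0 with all 5 and 0 to 11 with a library left out. The cause was not tested. A fit without 1 library leaves an arm with a lone library, assumed to vary like the other group.

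Over the alternatives of scaling, tool, filter and libraries, Cebpa ranged over -1.01 to -1.48 and Foxa3 over -1.14 to -1.65 in log2 fold change, always below 0. Hnf4a stayed above 0, at 0.06 to 0.51 with a library left out. Directions turned, with ranges over the fits that leave out 1 library, for Foxa1 (0.015 without M9, within -1.02 to 0.015), Foxa2 (-0.17 without M10, within -0.17 to 0.22), Onecut1 (-0.83 without M10, within -0.83 to 0.91), Sox9 (0.31 without M10 and 0.09 without M12, within -0.58 to 0.31), Cebpb (0.10 without M12, within -0.38 to 0.10), Onecut2 (0.19 with all 5 libraries) and Onecut3 (-0.018 with all 5 libraries), none of them called. Per length, Foxa2 was at 32.1 CPM per kilobase of its longest transcript. Shares computed per kilobase were, in co-cultures against organoids alone, 21.7% and 25.0% for Foxa1 and 75.2% and 66.4% for Foxa2. They were 3.07% and 8.61% for Foxa3 and 7.60% and 7.70% for Onecut1. No paired analysis was possible because the columns of the shared table carry no replicate number. Depth limits Foxa3, Nr5a2 and other genes of few counts most.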
